A study of Mus musculus with 15 samples.

Results

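Myeloid and pan-leukocyte genes were followed as a set of 35 listed genes, found by symbol among the probe sets that carry exactly 1 gene symbol, with an earlier symbol used where the gene has been renamed. Of the 35, 34 were measured by 1 such probe set each, out of 22180 genes in all, and none of the 34 was removed by a filter on low values. Lyn, a Src-family kinase of leukocytes, had no such probe set and was not analysed here.

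RNA came from carotid arteries of female C57Bl/6J mice aged 21 to 22 weeks, 5 days after surgery in which the left common carotid was tied off, a model of neointimal growth. The 4 groups were Has3-deficient ligated arteries (3 arrays, numbered 3, 5 and 6 in the labels), wildtype ligated arteries (4 arrays), Has3-deficient non-ligated arteries (4 arrays) and wildtype non-ligated arteries (4 arrays). Has3 is an enzyme that makes hyaluronan, a sugar polymer of the extracellular matrix. The labels give neither the Has3 allele nor whether each array stands for a different animal, and the p-values therefore rest on the spread among these arrays. Homogenised arteries, freed of adherent wound tissue, were used, so all cell types of the artery contribute. Each value is the log2 signal of a probe set minus the median of that probe set over the 15 arrays, so differences between arrays are kept and levels are not, and a value of 0 is the middle array and not an absent transcript. For the same reason the presence of the markers of an artery could not be checked, only their differences.

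Macrophages and neutrophils descend from myeloid progenitors whose growth and survival depend on colony-stimulating factors and their receptors, and whose gene programme is set largely by the transcription factor PU.1, the product of Spi1. Monocytes and neutrophils enter an injured artery by adhering through integrins and crawling, which needs the actin machinery that Rac GTPases control. Many genes of these steps have one member used by blood cells and relatives used by most other cells.

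PU.1 binds purine-rich sites with the core letters GAGGAA, so the windows from 250 bases before to 50 bases after the gene starts were searched for GAGGAA on either strand (TTCCTC on the gene's strand when the match is on the other one). The RefSeq table of build GRCm38.p6 held 33 such promoters for 28 of the 34 measured genes. The core was in 17 of the 33 (51.5%), against 28.3% of 32851 promoters of all genes. At least 2 matches were present in 5 of the 33 (15.2%), against 4.82% of all promoters. The letters TATAAA were in 15.2% of the 33 and in 13.6% of all, and CCAAT in 15.2% of the 33 and in 37.4% of all. Matches of the different motifs were counted separately, whether or not they overlapped. Of the 22 GAGGAA matches in these genes 16 (72.7%) began within 50 bases of the start, against 35.3% of the 11159 matches in all promoters. The 5 promoters with 2 matches each are shown because they carry the core most often. They belong to Inpp5d, a lipid phosphatase, Cd53, a tetraspanin, Dock2, a Rac activator, Cd68, a lysosomal glycoprotein, and Csf2ra, a growth factor receptor chain. Each is written 5′ to 3′ on the gene's strand, with GAGGAA or TTCCTC in capitals.
Inpp5d promoter, chr1:87620062-87620361, plus strand: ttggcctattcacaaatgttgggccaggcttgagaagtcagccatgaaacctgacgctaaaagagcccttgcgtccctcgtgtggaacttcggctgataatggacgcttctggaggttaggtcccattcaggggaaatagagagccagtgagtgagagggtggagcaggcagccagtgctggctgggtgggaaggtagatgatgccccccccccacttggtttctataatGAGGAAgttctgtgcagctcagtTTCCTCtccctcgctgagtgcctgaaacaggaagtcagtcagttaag
Cd53 promoter, chr3:106790100-106790399, minus strand: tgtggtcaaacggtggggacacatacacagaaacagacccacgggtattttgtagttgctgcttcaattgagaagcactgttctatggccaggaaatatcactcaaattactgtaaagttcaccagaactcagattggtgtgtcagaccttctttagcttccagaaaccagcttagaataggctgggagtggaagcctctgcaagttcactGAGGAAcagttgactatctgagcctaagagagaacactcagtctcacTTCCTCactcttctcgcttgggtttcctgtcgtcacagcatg
Dock2 promoter, chr11:34783856-34784155, minus strand: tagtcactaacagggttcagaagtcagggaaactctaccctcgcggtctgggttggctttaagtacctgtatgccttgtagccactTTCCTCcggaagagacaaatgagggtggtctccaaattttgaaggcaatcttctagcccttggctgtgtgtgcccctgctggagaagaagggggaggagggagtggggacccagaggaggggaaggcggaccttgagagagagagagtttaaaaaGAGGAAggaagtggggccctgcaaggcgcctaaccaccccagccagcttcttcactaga
Cd68 promoter, chr11:69666121-69666420, minus strand: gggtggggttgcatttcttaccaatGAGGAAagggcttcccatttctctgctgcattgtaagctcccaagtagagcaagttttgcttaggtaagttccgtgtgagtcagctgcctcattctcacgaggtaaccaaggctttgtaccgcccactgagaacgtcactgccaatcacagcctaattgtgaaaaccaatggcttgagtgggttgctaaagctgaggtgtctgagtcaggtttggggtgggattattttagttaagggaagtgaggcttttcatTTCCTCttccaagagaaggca
Csf2ra promoter, chr19:61228369-61228668, minus strand: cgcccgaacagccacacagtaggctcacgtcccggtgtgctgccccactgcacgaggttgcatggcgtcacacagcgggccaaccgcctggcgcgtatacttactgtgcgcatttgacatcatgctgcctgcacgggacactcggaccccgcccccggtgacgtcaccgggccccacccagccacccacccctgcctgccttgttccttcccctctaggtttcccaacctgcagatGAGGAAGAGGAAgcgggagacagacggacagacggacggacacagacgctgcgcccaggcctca
In Inpp5d one match began 20 bases before the start and the other 4 bases after it. In Cd53 they began 39 bases before and 9 bases after it. In Csf2ra both were on the gene's strand, 14 and 8 bases before the start. In Dock2 one began 9 bases and the other 164 bases before the start, and in Cd68 one began 225 bases before and the other 30 bases after it. A match is a description of the letters in the window and not evidence of binding.

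All 34 measured genes were higher in ligated arteries, in both genotypes. The genes were chosen with earlier results of these data known, so their counts against all genes are a description and not independent support. The median change, ligated minus non-ligated, was 2.49 log2 units in Has3-deficient arteries and 2.31 in wildtype arteries, which is 5.63-fold and 4.96-fold, while the medians over all 22180 genes were -0.03 and 0.01. In Has3-deficient arteries 34 of 34 passed as higher with limma (p adjusted by Benjamini-Hochberg across the 22180 genes, threshold 0.05), against 10.2% of all genes, and 33 of 34 passed and exceeded 2-fold, against 3.38%. In wildtype arteries 34 of 34 passed as higher, against 13.2% of all genes, and all 34 exceeded 2-fold, against 3.65%. Rises of over 4-fold were seen in 28 of the 34 genes in Has3-deficient arteries, against 1.12% of all genes, and in 24 in wildtype arteries, against 1.12%. Rises of over 8-fold were seen in 10 genes in Has3-deficient arteries, against 0.356% of all genes, and in 8 in wildtype arteries, against 0.370%. In whole tissue, more leukocytes and more RNA per leukocyte cannot be told apart.

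The arrays separated fully. For all 34 genes every ligated array lay above every non-ligated array, against 8.53% of all genes. That count too is a description of genes chosen with earlier results known. The gap between the lowest ligated and the highest non-ligated array had a median of 1.77 log2 units, was smallest for Csf2rb at 0.14 and largest for Mpeg1 at 3.16, and exceeded 1 unit in 30 of the 34 genes.

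**Figure D1:**
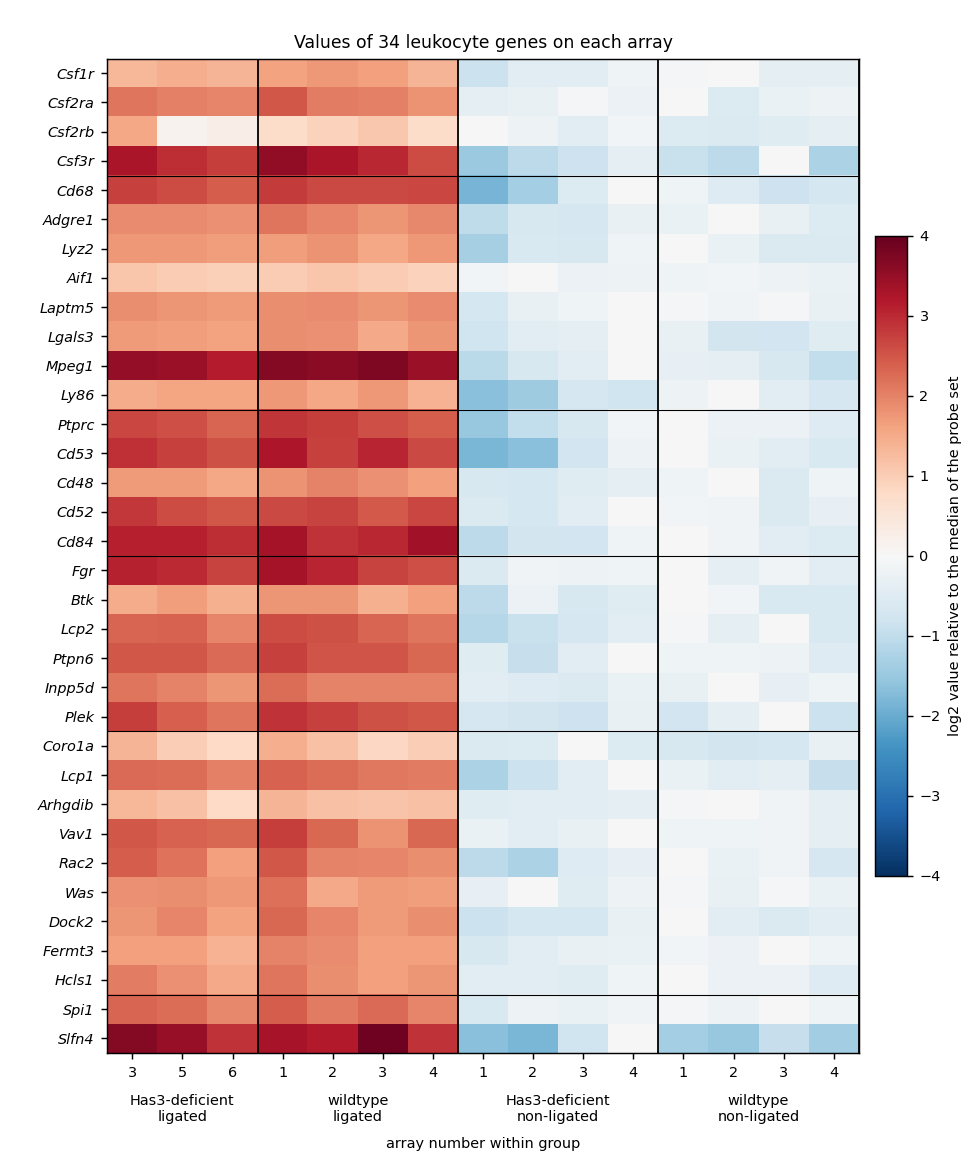
Heat map of the log2 value of each of the 34 measured genes (lines, ordered by role) on each of the 15 arrays (columns, in 4 groups), relative to the median of the probe set, on a colour scale that is symmetric around 0 (red above, blue below). All 7 ligated arrays are red for nearly every gene and all 8 non-ligated arrays are near 0 or blue; Csf2rb is pale on Has3-deficient ligated arrays 5 and 6.

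The growth factor receptors held both large and small changes. Csf3r, the receptor of the granulocyte factor, had values of 3.26, 2.96 and 2.77 in Has3-deficient ligated arteries, 3.56, 3.26, 3.02 and 2.59 in wildtype ligated, -1.48, -1.06, -0.83 and -0.37 in Has3-deficient non-ligated and -0.90, -1.04, 0.00 and -1.26 in wildtype non-ligated arteries. The highest non-ligated array, wildtype array 3, stood above the other wildtype non-ligated arrays but far below all ligated ones. The change of Csf3r was 3.93 ± 0.31 log2 units (± standard error) or 15.2-fold in Has3-deficient arteries (limma adjusted p = 5.63e-07) and 3.91 ± 0.28 or 15-fold in wildtype arteries (adjusted p = 2.12e-07).

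Csf2rb, the signalling chain shared by the receptors for the granulocyte-macrophage factor, interleukin 3 and interleukin 5, had the smallest change of the set in Has3-deficient arteries. Its values were 1.53, 0.14 and 0.26 in Has3-deficient ligated arteries, 0.75, 0.92, 1.07 and 0.73 in wildtype ligated, 0.00, -0.20, -0.46 and -0.12 in Has3-deficient non-ligated and -0.56, -0.57, -0.48 and -0.38 in wildtype non-ligated arteries. Has3-deficient ligated array 3 stood far above arrays 5 and 6, which lay just above the highest non-ligated array. The change was 0.84 ± 0.25 (1.79-fold) in Has3-deficient arteries, with a limma adjusted p of 0.0298, and 1.36 ± 0.23 (2.57-fold) in wildtype arteries, with 0.000419. Without Has3-deficient ligated array 3 the Has3-deficient change was 0.39, and its adjusted p was 0.0550. It also missed the threshold without Has3-deficient non-ligated array 2 (0.84, adjusted p = 0.0560) or array 3 (0.75, adjusted p = 0.0636), and over 15 alternatives its limma adjusted p ran between 0.00197 and 0.151, with 9 of them passing. Csf2rb2, a near copy that encodes the mouse chain specific to interleukin 3, has its own probe set and rose by 3.39 ± 0.16 log2 units in Has3-deficient arteries and 3.63 ± 0.15 in wildtype arteries, or 10.5-fold and 12.4-fold. Signal shared between these near-identical copies was not tested.

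Csf2ra, which binds the granulocyte-macrophage factor, rose by 2.28 ± 0.15 in Has3-deficient and 2.34 ± 0.14 in wildtype arteries, and Csf1r, the receptor of the macrophage factor, rose by 1.86 ± 0.14 and 1.80 ± 0.13. Of 6 ligand genes listed for these receptors, 1 rose in Has3-deficient arteries and 2 rose and 1 fell in wildtype arteries. Of all genes 10.2% rose in Has3-deficient arteries, and 13.2% rose and 14.6% fell in wildtype arteries. The macrophage factor Csf1 rose by 1.004 ± 0.15 in Has3-deficient and 0.996 ± 0.14 in wildtype arteries. Csf3, the ligand of Csf3r, changed by 0.06 ± 0.10 in Has3-deficient arteries without passing (limma adjusted p = 0.749) and rose by 0.40 ± 0.09 in wildtype arteries (adjusted p = 0.00389). Csf2, the granulocyte-macrophage factor, changed by -0.18 ± 0.08 in Has3-deficient arteries without passing (adjusted p = 0.165) and by -0.34 ± 0.08 in wildtype arteries, where it passed as lower (adjusted p = 0.00422). The receptors thus moved by more log2 units than any ligand that passed, apart from Csf2rb in Has3-deficient arteries, whose change was below that of Csf1.

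The macrophage and lysosome markers comprised 8 genes with median changes of 2.47 in Has3-deficient and 2.13 in wildtype arteries. Mpeg1, a pore-forming protein of phagocytes, had values of 3.52, 3.44 and 3.16 in Has3-deficient ligated arteries, 3.68, 3.61, 3.72 and 3.45 in wildtype ligated, -1.09, -0.63, -0.44 and 0.00 in Has3-deficient non-ligated and -0.34, -0.40, -0.65 and -0.98 in wildtype non-ligated arteries. The ligated arrays formed a narrow band well above a wider non-ligated one. Mpeg1 rose by 3.91 ± 0.21 (15.1-fold, limma adjusted p = 2.50e-08) in Has3-deficient and by 4.21 ± 0.19 (18.5-fold, adjusted p = 5.13e-09) in wildtype arteries.

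Aif1, an actin-binding protein used as a macrophage stain, changed least in wildtype arteries among all 34 genes but with little spread. It had 1.12, 1.01 and 0.95 in Has3-deficient ligated arteries, 1.004, 1.10, 1.03 and 0.92 in wildtype ligated, -0.10, 0.00, -0.22 and -0.19 in Has3-deficient non-ligated and -0.18, -0.11, -0.19 and -0.25 in wildtype non-ligated arteries. The ligated and non-ligated arrays were clear of each other, with arrays of each group close together. The rise was 1.15 ± 0.07 (2.23-fold, limma adjusted p = 5.07e-08) in Has3-deficient and 1.19 ± 0.06 (2.29-fold, adjusted p = 1.14e-08) in wildtype arteries.

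The other markers of this role rose between these extremes. Cd68, a glycoprotein of the lysosome membrane, rose by 3.52 ± 0.32 in Has3-deficient and 3.24 ± 0.30 in wildtype arteries. Adgre1, a surface receptor that marks mouse tissue macrophages, rose by 2.53 ± 0.15 in Has3-deficient and 2.22 ± 0.14 in wildtype arteries. Lyz2, the lysozyme of myeloid cells, rose by 2.41 ± 0.21 in Has3-deficient and 2.04 ± 0.19 in wildtype arteries. Laptm5, a lysosomal membrane protein of blood cells, and Lgals3, a galectin abundant in activated macrophages, rose by 2.08 and 2.07 in Has3-deficient arteries, and by 1.99 and 2.31 in wildtype arteries. Ly86, a secreted partner of the receptor Cd180, rose by 2.69 ± 0.22 in Has3-deficient and 1.93 ± 0.20 in wildtype arteries.

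Leukocyte surface proteins had the highest median of the roles with more than 2 genes, 3.33 in Has3-deficient and 2.91 in wildtype arteries. Cd84, a SLAM-family receptor, had 3.09, 3.10 and 2.95 in Has3-deficient ligated arteries, 3.33, 2.89, 3.01 and 3.37 in wildtype ligated, -1.06, -0.74, -0.75 and -0.17 in Has3-deficient non-ligated and 0.00, -0.14, -0.43 and -0.56 in wildtype non-ligated arteries. All ligated arrays were high and close together in both genotypes. It rose by 3.73 ± 0.19 (13.3-fold, limma adjusted p = 1.88e-08) in Has3-deficient and by 3.43 ± 0.17 (10.8-fold, adjusted p = 1.00e-08) in wildtype arteries. Cd48, a SLAM-family ligand, had 1.71, 1.70 and 1.54 in Has3-deficient ligated arteries, 1.79, 1.97, 1.82 and 1.65 in wildtype ligated, -0.63, -0.71, -0.49 and -0.38 in Has3-deficient non-ligated and -0.16, 0.00, -0.57 and -0.18 in wildtype non-ligated arteries. Its ligated arrays lay together and clear of the others. Cd48 rose least in this role, by 2.20 ± 0.12 (4.61-fold) in Has3-deficient and 2.03 ± 0.11 (4.09-fold) in wildtype arteries (limma adjusted p = 3.14e-08 and 1.86e-08). Ptprc, the phosphatase CD45 found on all nucleated blood cells, rose by 3.33 ± 0.24 in Has3-deficient and 2.90 ± 0.23 in wildtype arteries. The tetraspanin Cd53 rose by 3.85 ± 0.31 in Has3-deficient and 3.25 ± 0.29 in wildtype arteries, and the small lipid-anchored glycoprotein Cd52 by 3.08 ± 0.15 and 2.91 ± 0.14.

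Signalling enzymes and adaptors were measured by 6 genes, with medians of 2.93 in Has3-deficient and 2.72 in wildtype arteries. Plek, pleckstrin, a protein kinase C substrate of platelets and leukocytes, had 2.76, 2.41 and 2.14 in Has3-deficient ligated arteries, 2.88, 2.75, 2.54 and 2.48 in wildtype ligated, -0.66, -0.74, -0.81 and -0.29 in Has3-deficient non-ligated and -0.77, -0.40, 0.00 and -0.86 in wildtype non-ligated arteries. The highest non-ligated array, wildtype array 3, was clearly below the lowest ligated one. It rose by 3.06 ± 0.20 (8.36-fold, limma adjusted p = 1.21e-07) in Has3-deficient and 3.17 ± 0.19 (8.99-fold, adjusted p = 3.26e-08) in wildtype arteries. Btk, a Tec-family kinase of B cells and myeloid cells, had 1.49, 1.67 and 1.43 in Has3-deficient ligated arteries, 1.77, 1.76, 1.44 and 1.64 in wildtype ligated, -1.03, -0.24, -0.63 and -0.48 in Has3-deficient non-ligated and 0.00, -0.11, -0.62 and -0.60 in wildtype non-ligated arteries. Has3-deficient non-ligated array 1 was lowest, and the ligated and non-ligated arrays were clear of each other. Btk rose by 2.13 ± 0.18 (4.36-fold) in Has3-deficient and 1.99 ± 0.17 (3.96-fold) in wildtype arteries (limma adjusted p = 1.32e-06 and 9.15e-07). Fgr, a Src-family kinase of myeloid cells, rose by 3.20 ± 0.18 in Has3-deficient and 3.16 ± 0.16 in wildtype arteries. The adaptor Lcp2 rose by 2.99 in Has3-deficient and 2.66 in wildtype arteries. The inhibitory phosphatases Ptpn6 and Inpp5d rose as well, Ptpn6 by 2.87 and Inpp5d by 2.41 in Has3-deficient arteries, and by 2.78 and 2.25 in wildtype arteries. Kinases that start these signals and phosphatases that damp them both rose.

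The 9 genes of the actin machinery had medians of 2.18 in Has3-deficient and 2.10 in wildtype arteries. Lcp1, the plastin of leukocytes, which bundles actin filaments, had 2.27, 2.24 and 2.01 in Has3-deficient ligated arteries, 2.36, 2.23, 2.12 and 2.09 in wildtype ligated, -1.27, -0.87, -0.44 and 0.00 in Has3-deficient non-ligated and -0.26, -0.46, -0.37 and -0.93 in wildtype non-ligated arteries. Ligated arrays were within a narrow band, and the non-ligated arrays spread more widely below it. The rise of Lcp1 was 2.82 ± 0.23 (7.05-fold, limma adjusted p = 9.13e-07) in Has3-deficient and 2.71 ± 0.22 (6.53-fold, adjusted p = 4.91e-07) in wildtype arteries. Arhgdib, a cytosolic regulator of small GTPases in blood cells, had 1.34, 1.17 and 0.80 in Has3-deficient ligated arteries, 1.35, 1.17, 1.15 and 1.19 in wildtype ligated, -0.47, -0.43, -0.43 and -0.37 in Has3-deficient non-ligated and -0.08, 0.00, -0.14 and -0.36 in wildtype non-ligated arteries. Has3-deficient ligated array 6 was the lowest ligated array and still above all non-ligated ones. Arhgdib rose by 1.53 ± 0.11 (2.88-fold) in Has3-deficient and 1.36 ± 0.10 (2.56-fold) in wildtype arteries (limma adjusted p = 3.03e-07 and 3.04e-07).

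Genes of the Rac pathway rose together. Rac2, the Rac GTPase of blood cells, rose by 2.87 ± 0.25 in Has3-deficient and 2.34 ± 0.23 in wildtype arteries. Its activators Vav1 and Dock2 rose by 2.62 and 2.40 in Has3-deficient arteries and by 2.49 and 2.31 in wildtype arteries. Was, which starts branched actin, rose by 2.06 in Has3-deficient and 1.94 in wildtype arteries, and Hcls1, a cortactin relative of blood cells, by 2.18 and 2.10. Coro1a, a coronin that regulates actin in leukocytes, rose by 1.46 ± 0.18 in Has3-deficient and 1.70 ± 0.17 in wildtype arteries. Fermt3, a kindlin that activates integrins, rose by 1.98 ± 0.11 in Has3-deficient and 1.92 ± 0.10 in wildtype arteries.

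Spi1 encodes PU.1. It had 2.31, 2.23 and 1.94 in Has3-deficient ligated arteries, 2.41, 2.09, 2.25 and 1.95 in wildtype ligated, -0.60, -0.19, -0.26 and -0.14 in Has3-deficient non-ligated and -0.07, -0.22, 0.00 and -0.18 in wildtype non-ligated arteries. The arrays of each group were close together and the ligated ones all high. Spi1 rose by 2.46 ± 0.13 (5.49-fold, limma adjusted p = 2.43e-08) in Has3-deficient and 2.29 ± 0.12 (4.90-fold, adjusted p = 1.12e-08) in wildtype arteries. Slfn4, a mouse schlafen gene of myeloid cells, had the largest change of the set in both genotypes. Its values were 3.66, 3.47 and 2.88 in Has3-deficient ligated arteries, 3.29, 3.19, 3.90 and 2.90 in wildtype ligated, -1.68, -1.84, -0.81 and 0.00 in Has3-deficient non-ligated and -1.36, -1.52, -0.93 and -1.39 in wildtype non-ligated arteries. Has3-deficient non-ligated arrays 1 and 2 were the lowest and array 4 the highest of all non-ligated arrays. Slfn4 rose by 4.42 ± 0.37 (21.4-fold, limma adjusted p = 1.18e-06) in Has3-deficient and 4.62 ± 0.35 (24.6-fold, adjusted p = 2.81e-07) in wildtype arteries. Its near copies Slfn2 and Slfn1, with probe sets of their own, rose by 2.99 and 1.96 in Has3-deficient arteries and by 2.76 and 2.16 in wildtype arteries, so signal shared between schlafen genes remains uncertain. Of 7 measured near copies of the 34 genes, 6 rose in Has3-deficient and 5 in wildtype arteries. Among all genes 10.2% rose in Has3-deficient and 13.2% in wildtype arteries.

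**Figure D2:**
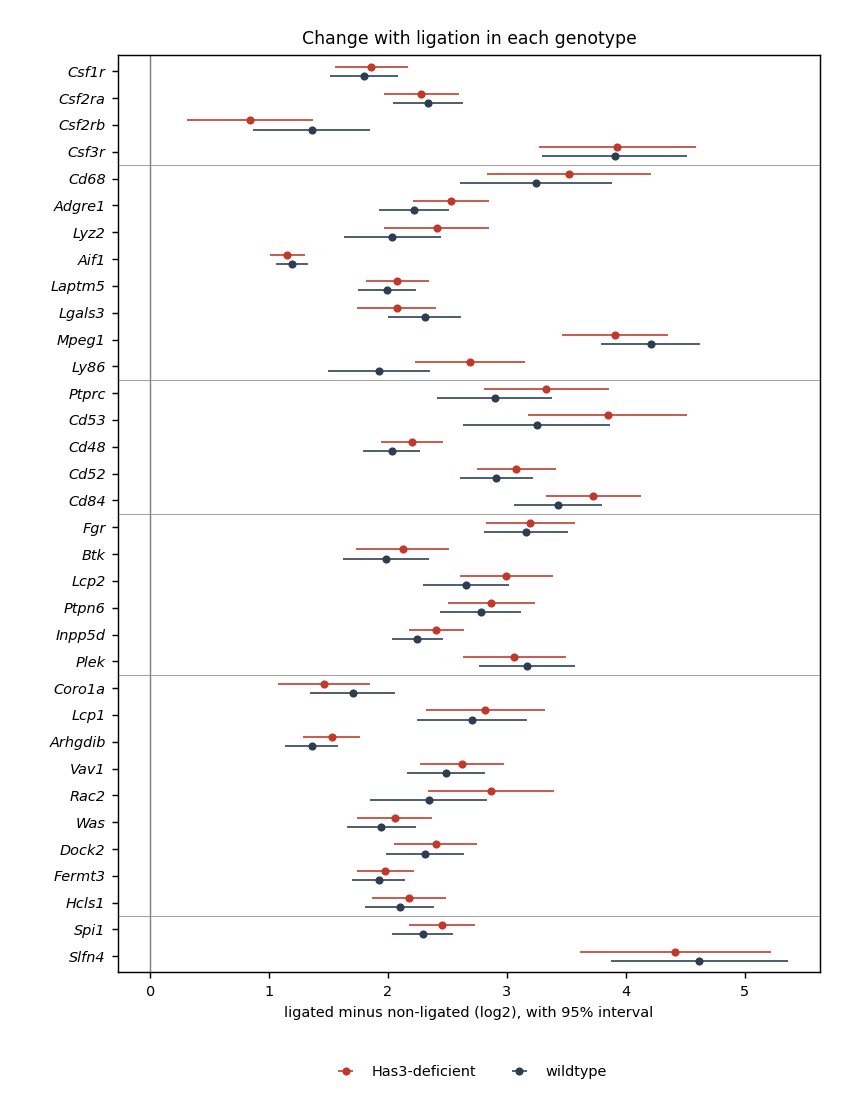
Change with ligation (ligated minus non-ligated, log2, x axis) of each of the 34 genes, with its 95% interval, in Has3-deficient arteries (upper point of each pair) and wildtype arteries (lower point). All intervals lie above 0; the points run between 0.84 (Csf2rb) and 4.42 (Slfn4) in Has3-deficient arteries and between 1.19 (Aif1) and 4.62 (Slfn4) in wildtype arteries.

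Other genes of the same pathways were taken from lists of their known roles. As all lists were drawn up with earlier results of these data known, their counts are not independent support for the measured genes. Of 34 listed partners of the measured genes, such as integrins, adaptors and receptors, 31 were measured, and 29 rose in each genotype, with medians of 1.84 in Has3-deficient and 1.69 in wildtype arteries. The share of all genes that rose was 10.2% in Has3-deficient and 13.2% in wildtype arteries. Clec7a, a receptor for fungal glucans, rose by 4.24 ± 0.24 in Has3-deficient and 3.92 ± 0.22 in wildtype arteries. The integrin chains Itgb2 and Itgam, which together form the myeloid adhesion receptor Mac-1, rose by 3.85 and 3.83 in Has3-deficient arteries and by 3.73 and 3.62 in wildtype arteries. Blk and Lat did not pass in Has3-deficient arteries, and Blk and Grap2 did not pass in wildtype arteries. Lat rose in wildtype and Grap2 in Has3-deficient arteries, so only Blk passed in neither genotype. These genes are named after their values were seen. Of 12 listed transcription factors of blood cells, 11 were measured and 7 rose in each genotype, with medians of 0.78 in Has3-deficient and 0.91 in wildtype arteries. Runx1 rose by 2.13 ± 0.15, Cebpb by 1.23 ± 0.18 and Ikzf1 by 1.71 ± 0.12 in Has3-deficient arteries, and by 2.22 ± 0.14, 1.46 ± 0.17 and 1.37 ± 0.12 in wildtype arteries.

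Relatives of the same protein families moved in both directions. Of 29 listed relatives 27 were measured. In Has3-deficient arteries 4 rose, 6 fell and 17 did not pass, with a median of -0.09; of all genes 10.2% rose and 8.08% fell. In wildtype arteries 7 rose, 9 fell and 11 did not pass, with a median of 0.02; of all genes 13.2% rose and 14.6% fell. Vav3, the largest riser, rose by 1.08 ± 0.15 in Has3-deficient and 1.09 ± 0.14 in wildtype arteries, and Coro1b by 0.66 ± 0.08 and 0.70 ± 0.07. Vav2 changed by 0.26 ± 0.14 in Has3-deficient arteries without passing (limma adjusted p = 0.234) and rose by 0.50 ± 0.13 in wildtype arteries (adjusted p = 0.00919). Bmx, the Tec-family kinase of endothelium, had changes of -1.15 ± 0.21 in Has3-deficient and -1.52 ± 0.19 in wildtype arteries and passed as lower in both. The widely used kindlin Fermt2 had -0.53 ± 0.07 and -0.92 ± 0.07, and the plastin Pls3 had -0.47 ± 0.08 and -0.86 ± 0.08, and both passed as lower in both genotypes. Among 22 pairs of a leukocyte gene and a relative, the leukocyte gene had the higher wildtype change in 22. These pairs hold 17 leukocyte genes, some of them more than once, and do not include Vav3. Near copies were left out of them. Any other pairing of these genes would give the same count. The lowest wildtype change of a measured leukocyte gene was 1.19 (Aif1), above the highest of a relative, 1.09 (Vav3). The count therefore restates that separation and does not test the pairing. The leukocyte genes and the relatives were both listed with earlier results of these data known. Among the near copies, Csf2rb2 rose by more than Csf2rb in wildtype arteries, 3.63 against 1.36.

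**Figure D3:**
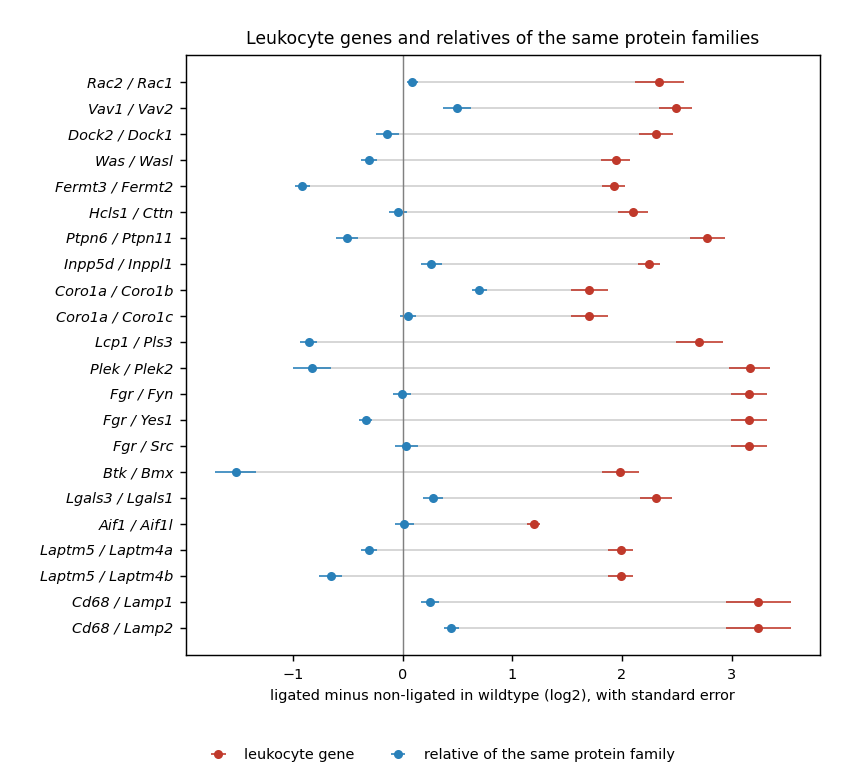
Change with ligation in wildtype arteries (ligated minus non-ligated, log2, x axis, bars are standard errors) for 22 pairs of a leukocyte gene (red) and a relative of the same protein family (blue), joined by a grey line. All red points lie to the right of the blue ones; the lowest blue point is Bmx, at -1.52, paired with Btk, at 1.99.

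Markers of cell types, taken from genes outside the 34, were read on the same arrays. Their lists too were drawn up with earlier results of these data known. Of 10 macrophage markers 8 rose in each genotype, and the mean of the list ran between 1.33 and 1.49 in Has3-deficient ligated arrays, 1.28 and 1.56 in wildtype ligated arrays, -0.80 and -0.10 in Has3-deficient non-ligated arrays and -0.43 and -0.10 in wildtype non-ligated arrays. Of 10 neutrophil markers 7 rose and 1, Camp, fell in Has3-deficient arteries, and 7 rose in wildtype arteries. The mean of the neutrophil list ran between 1.36 and 1.74 in Has3-deficient ligated, 1.11 and 1.88 in wildtype ligated, -0.70 and -0.09 in Has3-deficient non-ligated and -0.76 and -0.12 in wildtype non-ligated arrays. T cell markers rose in 3 of 8 genes in Has3-deficient arteries (Cd3e, Cd3g and Cd4) and in 2 of 8 in wildtype arteries (Cd2 and Cd4). Of 5 measured B cell markers 1, Cd22, rose in each genotype, and of 8 mast cell markers 1, Kit, did, where 10.2% of all genes rose in Has3-deficient and 13.2% in wildtype arteries. Of 5 measured platelet markers 1, Pf4, rose in Has3-deficient arteries and 2, Pf4 and Ppbp, rose in wildtype arteries. The marker genes in this paragraph are named after their values were seen. All 6 smooth muscle markers fell in both genotypes, with medians of -0.66 in Has3-deficient and -1.08 in wildtype arteries. The share of all genes that fell was 8.08% in Has3-deficient and 14.6% in wildtype arteries. Of 6 fat markers 0 passed in Has3-deficient arteries (median -0.66) and 3 fell in wildtype arteries (Plin1, Cidec and Retn, median of the list -1.21). Of 6 endothelial markers 2 rose and 2 fell in each genotype. Of 6 adventitial fibroblast markers 2 rose and 2 fell in Has3-deficient arteries, and 1 rose and 3 fell in wildtype arteries. The part of these markers in the changes of the 34 genes was not tested.

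The median spread between arrays was larger for these genes than over all genes. The median SD over the 34 genes was 0.17 in Has3-deficient ligated, 0.18 in wildtype ligated, 0.30 in Has3-deficient non-ligated and 0.22 in wildtype non-ligated arteries, against 0.09, 0.11, 0.14 and 0.11 over all genes in the same groups. Within a group the same arrays were often the extremes. Among Has3-deficient ligated arrays, array 3 was highest for 26 of the 34 genes and array 6 lowest for 31, and among wildtype ligated arrays, array 1 was highest for 23. Among Has3-deficient non-ligated arrays, array 4 was highest for 26 and array 1 lowest for 22, and among wildtype non-ligated arrays, array 1 was highest for 15 and array 4 lowest for 20.

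The medians of the 34 genes were 2.14, 2.00 and 1.80 on Has3-deficient ligated arrays 3, 5 and 6, 2.32, 1.99, 1.89 and 1.91 on wildtype ligated arrays, -0.74, -0.61, -0.49 and -0.19 on Has3-deficient non-ligated arrays and -0.10, -0.25, -0.31 and -0.50 on wildtype non-ligated arrays. The non-ligated arrays with the highest medians, Has3-deficient array 4 and wildtype array 1, also had the highest mean of 6 fat markers in their groups, 1.47 and 1.19, whereas the means on the other non-ligated arrays ran between -0.23 and 0.87. Fat was not alone in this. On the same 2 arrays, Has3-deficient array 4 and wildtype array 1, the mean of 8 mast cell markers was highest too (0.555 and 0.540). So was the mean of 10 macrophage markers (-0.10 on both). No other marker list was highest in its group on both arrays. The part of any of these lists in the medians was not tested.

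**Figure D4:**
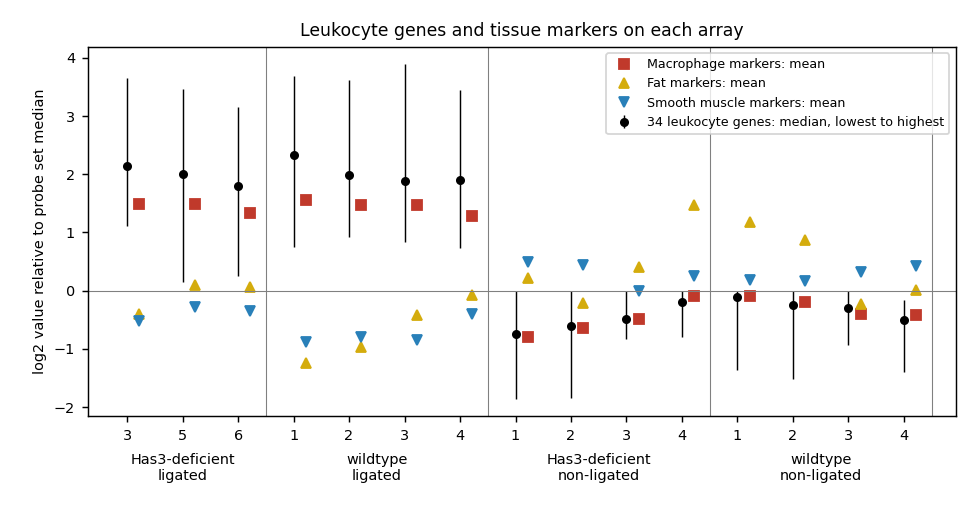
Median (black point) and lowest to highest value (bar) of the 34 genes on each array, with the means of the macrophage (red squares), fat (yellow triangles) and smooth muscle markers (blue triangles), all as log2 values relative to the probe set median. The black points lie between 1.80 and 2.32 on ligated arrays and between -0.74 and -0.10 on non-ligated arrays; fat markers reach 1.47 on Has3-deficient non-ligated array 4.

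The genotypes were compared in ligated arteries next. The Has3 probe set checks nothing here, since its differences, Has3-deficient minus wildtype, were -0.20 ± 0.16 in ligated and 0.09 ± 0.14 in non-ligated arteries and passed in neither, so the genotypes follow the labels. In ligated arteries 0 of the 34 leukocyte genes passed in either direction with limma, as did 0% of all genes, and 0 had an unadjusted p under 0.05, against 1.83% of all genes as higher and 2.27% as lower. The difference was negative for 27 of 34 genes and positive for 7, with a median of -0.08, against -0.01 over all genes, and ran between -0.24 for Mpeg1 and 0.10 for Vav1. The median was -0.16 without Has3-deficient ligated array 3 and -0.02 without array 6. With quantile normalization it was 0.02, so its sign depends on the processing. All 34 intervals lay within 1 log2 unit of 0, so differences of 2-fold or more were outside the 95% interval of each gene, while smaller ones were not excluded by it.

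Fermt3 had the lowest p in ligated arteries. Its values were 1.64, 1.64 and 1.39 in Has3-deficient ligated and 2.00, 1.89, 1.64 and 1.64 in wildtype ligated arteries. The groups overlapped. The difference was -0.23 ± 0.11 (95% interval -0.47 to 0.01, limma adjusted p = 0.9999). Csf1r followed, with 1.33, 1.46 and 1.36 in Has3-deficient ligated and 1.61, 1.74, 1.63 and 1.37 in wildtype ligated arteries. Wildtype array 4 lay among the Has3-deficient arrays. The difference was -0.20 ± 0.14 (95% interval -0.51 to 0.10, limma adjusted p = 0.9999).

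In non-ligated arteries too, 0 of the 34 genes passed in either direction with limma, where 0.00902% of all genes passed as higher and 0.0766% as lower. The difference, Has3-deficient minus wildtype, was negative for 27 genes, with a median of -0.19 against 0.01 over all genes, and 11 of the 34 were lower at an unadjusted p under 0.05, against 8.09% of all genes, while 0 were higher at that level, against 5.34%. The arrays of the genotypes did not overlap for 2 genes, Fermt3 and Arhgdib, both lower in Has3-deficient arteries, against 3.82% of all genes. Intervals lay within 1 log2 unit of 0 for 29 of the 34 genes. The median was -0.31 without Has3-deficient array 4, -0.11 without array 1 and -0.07 without arrays 1 and 2, an alternative chosen after the data were seen.

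Ly86 had the lowest p in non-ligated arteries, with values of -1.68, -1.41, -0.66 and -0.80 in Has3-deficient and -0.20, 0.00, -0.46 and -0.67 in wildtype arteries. Has3-deficient arrays 1 and 2 were far below the rest, and Has3-deficient array 3 overlapped with wildtype array 4. The difference was -0.80 ± 0.20 (95% interval -1.23 to -0.38, limma adjusted p = 0.100). Without Has3-deficient non-ligated arrays 1 and 2 it was -0.40. Lcp2 had -1.14, -0.88, -0.66 and -0.43 in Has3-deficient and -0.07, -0.36, 0.00 and -0.60 in wildtype non-ligated arteries. Has3-deficient array 1 was the lowest and the groups overlapped. The difference was -0.52 ± 0.17 (95% interval -0.88 to -0.16, limma adjusted p = 0.202). Cd53 had -1.81, -1.67, -0.76 and -0.19 in Has3-deficient and 0.00, -0.27, -0.45 and -0.61 in wildtype non-ligated arteries. Has3-deficient array 4 lay among the wildtype arrays. The difference was -0.78 ± 0.29 (limma adjusted p = 0.268) with all arrays and -1.08 (adjusted p = 0.0454) without Has3-deficient array 4, and its adjusted p ran between 0.0454 and 0.817 over the alternatives. No other single array, when left out, made any of the 34 genes pass in this comparison.

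Several marker lists differed between the non-ligated arrays, though no gene of any marker list passed between the genotypes there. The mean of the macrophage markers was -0.80, -0.63, -0.48 and -0.10 on Has3-deficient non-ligated arrays and -0.10, -0.20, -0.40 and -0.43 on wildtype non-ligated arrays. Fat markers were 0.21, -0.21, 0.40 and 1.47 on the Has3-deficient and 1.19, 0.87, -0.23 and 0.02 on the wildtype non-ligated arrays. The mean of 6 adventitial fibroblast markers was -0.12, -0.15, -0.12 and -0.14 on the Has3-deficient and 0.15, 0.31, 0.13 and 0.11 on the wildtype non-ligated arrays, so the genotypes did not overlap in it. Of these 6 genes 0 passed between the genotypes, and in every other marker list the means overlapped. The mean of 5 measured neuron markers was 1.34, -0.03, 5.50 and 2.62 on the Has3-deficient and -0.09, 3.47, -0.21 and -0.16 on the wildtype non-ligated arrays. The part of any of these lists in the genotype difference was not tested.

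**Figure D5:**
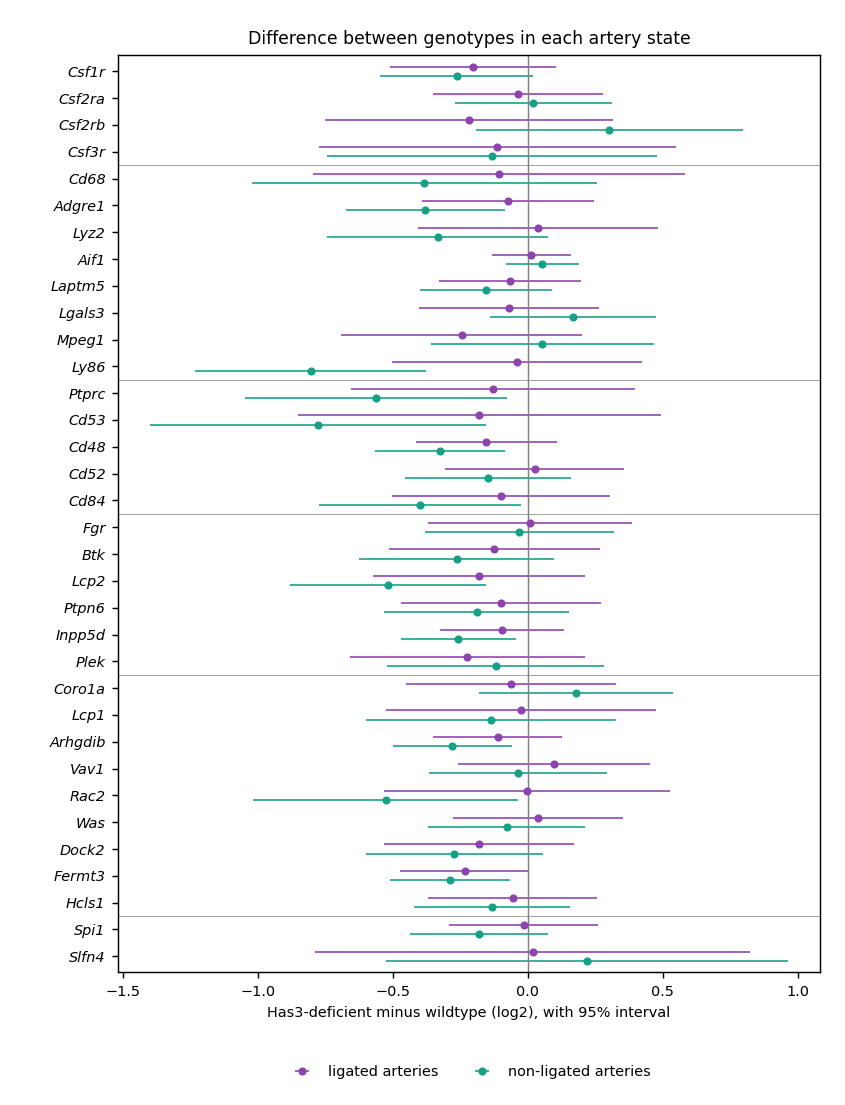
Difference between genotypes (Has3-deficient minus wildtype, log2, x axis) of each of the 34 genes, with its 95% interval, in ligated arteries (upper point, purple) and non-ligated arteries (lower point, green). Purple points lie between -0.24 and 0.10; green points spread between -0.80 (Ly86) and 0.30 (Csf2rb).

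Whether the change with ligation depended on genotype was tested as the Has3-deficient change minus the wildtype change, which shares its arrays with the 4 comparisons above. With limma 0 of the 34 genes passed, as did 0% of all genes. The Has3-deficient change was the larger for 26 genes and the wildtype change for 8, with a median difference of 0.11, against -0.02 over all genes. The median of the 34 genes was 0.04 without Has3-deficient non-ligated array 1, 0.20 without array 4 and -0.03 without arrays 1 and 2. Its direction thus rests on those arrays. Ly86 had 1.48, 1.59 and 1.58 in Has3-deficient ligated and 1.72, 1.53, 1.73 and 1.39 in wildtype ligated arteries, beside the non-ligated values above. Its ligated arrays overlapped between the genotypes. Only Ly86 had an unadjusted p under 0.05, with a difference of 0.76 ± 0.29 (95% interval 0.13 to 1.40, limma adjusted p = 0.538), in the direction that 4.38% of all genes shared at that level; 0 were lower, against 3.75%. Rac2 followed. Its values were 2.41, 2.17 and 1.64 in Has3-deficient ligated, 2.49, 1.98, 1.96 and 1.87 in wildtype ligated, -1.05, -1.28, -0.52 and -0.33 in Has3-deficient non-ligated and 0.00, -0.27, -0.14 and -0.66 in wildtype non-ligated arteries. The genotypes overlapped in both artery states, and Has3-deficient non-ligated arrays 1 and 2 were lowest. The difference of the changes was 0.52 ± 0.34 (95% interval -0.20 to 1.24, limma adjusted p = 0.719). The largest negative difference belonged to Csf2rb, at -0.52 ± 0.34. It was -0.97 without Has3-deficient ligated array 3, -0.27 without array 5 and -0.33 without array 6, and it did not pass in any of these. For 27 of the 34 genes the interval lay within 1 log2 unit of 0.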

How the data were processed

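Total RNA from homogenised arteries (100 ng per array) was amplified and hybridised as biotin-labelled cDNA, per the labels' protocols. The authors' deposited value table holds log2 values of 33793 probe sets on 15 arrays. That the base is 2 was inferred from the size of the values. Every probe set has a median of exactly 0, so levels, a filter on dim probe sets and a variance trend were not available. Array medians lie within 0.0167 of 0. For the normalization, the software and scan dates, the entry is: not given in the sources used here. Array batches therefore could not be tested.

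Gene symbols came from the platform annotation given with the data: 23521 probe sets carried 1 symbol, 1814 several and 8458 none. Probe sets of a gene were averaged (22180 genes). A group-means model over all 15 arrays was fitted by limma 3.58.1 under R 4.3.3 (11 residual and 2.69 prior degrees of freedom) and 5 contrasts, with Benjamini-Hochberg adjustment over all genes and a threshold of 0.05.

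The 35 genes and all lists were chosen with earlier results of these data known. Values of every array are given for the genes with the largest and smallest wildtype change of each role and the 2 with the lowest p in each genotype comparison and in the interaction; Cd53 was added after its values were seen. Of each further list up to 3 passing genes each way are named. Promoters are those of RefSeq, build GRCm38.p6. Protein sequences were not used here, so the planned identities were not computed. As alternatives, each array was left out in turn, and array weights, quantile normalization, a shared median, a robust prior, a replicate block, the probe set of largest SD and fits to only the groups compared were tried.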

Additional observations from a re-analysis of the deposited data

Results flagged for a closer look

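Each of the 34 genes was screened for a single far array in each group of 4 arrays, by the gap to the nearest array over the range of the group. Chance flags about 1 in 20 groups, which for 102 screened groups is 5.1, and 6 met the limit. Cd68 was 2.80 on wildtype ligated array 1, against 2.64 to 2.66 on the other arrays of that group. Inpp5d was 2.25 on the same array, against 1.98 to 2.00. Arhgdib was 1.35 on it as well, against 1.15 to 1.19. Ptpn6 was -0.53 on wildtype non-ligated array 4, against -0.21 to -0.16, and Vav1 was -0.35 on that array, against -0.17 to -0.15. Coro1a was 0.00 on Has3-deficient non-ligated array 3, against -0.58 to -0.54.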

How the results depend on the processing

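No gene that passed reversed its direction in any alternative tried, and no count changed by over 1.5 times except one. Without Has3-deficient non-ligated array 4, 1 gene (Cd53) passed as lower in Has3-deficient non-ligated arteries, against 0 with all arrays. With arrays left out in turn this count was 0 to 1, the count of genes higher with ligation in Has3-deficient arteries was 33 to 34, that in wildtype arteries stayed at 34, and the other counts stayed at 0. Leaving out arrays in turn gave median changes of 2.41 to 2.61 in Has3-deficient and 2.21 to 2.41 in wildtype arteries, and median genotype differences of -0.16 to -0.02 in ligated and -0.31 to -0.11 in non-ligated arteries, and median differences of the changes of 0.04 to 0.20. Without Has3-deficient non-ligated arrays 1 and 2 together, an alternative chosen after the data were seen, the last median was -0.03. Quantile normalization gave median changes of 2.01 in Has3-deficient and 1.81 in wildtype arteries. It gave a median genotype difference in ligated arteries of 0.02. Csf2rb lost its call in Has3-deficient arteries with array weights (0.60), with only the groups compared (0.84), without Has3-deficient non-ligated array 2 or 3 or Has3-deficient ligated array 3, and, in the added alternative, without Has3-deficient non-ligated arrays 1 and 2 together (0.93); the cause was not tested.

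With the replicate number as a block 34 genes passed as higher in wildtype arteries, and 0 passed between the genotypes in non-ligated arteries. The median change in Has3-deficient arteries was 2.58 under the block. The block moved the median genotype difference in ligated arteries to 0.02, against -0.08 without it, and kept the sign of the other medians. For Csf2rb, whose difference of changes did not pass without the block, the block turned it to 0.38 and made the Has3-deficient change 1.74. Has3-deficient ligated arrays 5 and 6 have numbers of their own, so the block compares them with no array. Under the block the Has3-deficient ligated group therefore rests on array 3 alone. Csf2rb was 1.53 on that array, against 0.14 and 0.26 on arrays 5 and 6. Arrays were also correlated over all genes, after the mean of its group was subtracted from each value. These correlations of same-numbered ligated and non-ligated arrays were 0.03, 0.05, 0.10 and 0.16 in wildtype arteries. For number 3 in Has3-deficient arteries the correlation was -0.06. Between genotypes, which cannot come from 1 mouse, they ran between -0.40 and -0.01. The labels do not state a pairing, and the numbers were not taken to pair the samples. Arrays give no count of molecules, and signal over background could not be read from centred values.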
